A study of Mus musculus with 12 samples.

Results

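The 10 genes described here are the orphan nuclear receptor genes Nr4a1, Nr4a2 and Nr4a3 and the immediate-early genes Fos, Fosb, Junb, Egr1, Egr3, Atf3 and Ier2. They were chosen by name, and their rows were taken from count files that list 26264 genes. All 10 had enough counts to be among the 13499 genes tested. RNA was sequenced from mouse tibialis anterior, a fast-twitch muscle at the front of the lower leg, in 12 libraries. The series is about a gel of tissue-derived extracellular matrix and about recovery from acute and disuse muscle injury. In 4 libraries the left muscle had been given 50 µl of the matrix gel at 6 mg/ml, in 4 the right muscle had been given 50 µl of PBS, the vehicle, and 4 came from uninjured muscle. The gel and PBS libraries are taken as the left and right legs of the same 4 animals, from the animal numbers in the deposited names, and the uninjured libraries as left legs of 4 other animals. Treatment and side of the body cannot be told apart between gel and PBS, nor between PBS and uninjured muscle. The sources used here do not give strain, sex, age, the kind of injury or the time from injection to collection.

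Immediate-early genes are transcribed within minutes of a stimulus from factors already present in the cell, and most of their transcripts are short-lived. In skeletal muscle they are induced by contraction, stretch, damage and stress hormones, and by the handling of the tissue. Fos, Fosb and Junb encode subunits of the AP-1 transcription factor, Egr1 and Egr3 encode zinc-finger factors, Atf3 encodes a stress-induced factor of the ATF/CREB family and Ier2 encodes a nuclear protein of the early response. The NR4A receptors act without a known hormone, are induced by cyclic AMP and calcium signals, and are linked in muscle to glucose and lipid metabolism.

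Library totals ran from 15626086 to 22182483 counts, and the 10 genes together took 0.0303% to 0.0804% of them. Fast-fibre markers, with 12 of 12 detected in each group, matched the labelled muscle. Their summed levels were 269896 to 301067 CPM (counts scaled by library depth) in uninjured, 240344 to 273943 CPM in PBS and 159923 to 244469 CPM in gel libraries. At an adjusted p below 0.05, 5 of the 12 fell and 0 rose in gel against uninjured muscle, beside 11.1% and 14.5% of all genes. In gel against PBS muscle 4 fell and 1 rose, beside 13.2% and 16.6%. Gel library 3 was unlike the rest of its group. Its 12 macrophage markers summed to 101 CPM, against 1027, 1610 and 1867 CPM in gel libraries 1, 2 and 4. The PBS libraries lay at 31.0 to 61.9 CPM and the uninjured libraries at 42.1 to 82.6 CPM, and none of the 12 markers was at 0 in any group. In bulk muscle, fewer cells of a type and less RNA per cell cannot be told apart.

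The promoters of the 3 receptor genes are shown first, because all 3 hold several copies of a sequence known for its part in cyclic AMP responses. It is the CRE half-site, TGACG or CGTCA on the other strand, which is bound by CREB and ATF factors and is in capitals below. Each window runs from 250 bases before to 50 bases after the transcription start, 5′ to 3′ on the gene's own strand, from RefSeq on build GRCm38.p6. The Nr4a1 window is chr15:101266596-101266895 on the plus strand, the Nr4a2 window is chr2:57123954-57124253 on the minus strand and the Nr4a3 window is chr4:48045055-48045354 on the plus strand.
Nr4a1: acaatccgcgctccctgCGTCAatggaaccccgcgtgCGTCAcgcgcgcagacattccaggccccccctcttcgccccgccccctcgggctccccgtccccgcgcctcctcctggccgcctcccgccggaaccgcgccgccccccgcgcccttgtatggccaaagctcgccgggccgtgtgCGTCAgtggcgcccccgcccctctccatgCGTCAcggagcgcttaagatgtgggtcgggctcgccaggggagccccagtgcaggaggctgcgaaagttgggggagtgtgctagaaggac
Nr4a2: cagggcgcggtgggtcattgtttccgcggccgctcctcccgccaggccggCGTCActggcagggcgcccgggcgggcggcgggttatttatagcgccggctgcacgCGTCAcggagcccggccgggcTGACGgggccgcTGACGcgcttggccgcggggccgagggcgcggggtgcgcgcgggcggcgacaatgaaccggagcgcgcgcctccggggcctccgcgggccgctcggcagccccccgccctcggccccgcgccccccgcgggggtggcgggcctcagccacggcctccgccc
Nr4a3: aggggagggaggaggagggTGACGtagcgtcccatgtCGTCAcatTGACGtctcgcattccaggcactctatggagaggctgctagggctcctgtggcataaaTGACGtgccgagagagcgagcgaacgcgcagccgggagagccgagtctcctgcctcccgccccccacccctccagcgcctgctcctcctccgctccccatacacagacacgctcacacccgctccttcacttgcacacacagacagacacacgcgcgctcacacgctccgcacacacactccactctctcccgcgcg
Each of the 3 windows held 4 CRE half-sites, counted on both strands. Of 32851 RefSeq windows of 300 bases, 20.8% held at least 1, 5.01% held 2 or more, 1.03% held 3 or more and 0.231%, or 76 windows, held 4 or more. The cut-off of 4 is the count of the 3 receptor windows themselves, so its share is a description and no test. These windows are rich in G and C, at 72.3%, 81.7% and 64.7%. Among the 6218 windows with at least the GC content of the lowest, 0.563% held 4 or more.

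The windows of Fos and Atf3 are shown for comparison, as early genes outside the receptor family. The Fos window is chr12:85473640-85473939 on the plus strand and the Atf3 window is chr1:191183284-191183583 on the minus strand, both on GRCm38.p6.
Fos: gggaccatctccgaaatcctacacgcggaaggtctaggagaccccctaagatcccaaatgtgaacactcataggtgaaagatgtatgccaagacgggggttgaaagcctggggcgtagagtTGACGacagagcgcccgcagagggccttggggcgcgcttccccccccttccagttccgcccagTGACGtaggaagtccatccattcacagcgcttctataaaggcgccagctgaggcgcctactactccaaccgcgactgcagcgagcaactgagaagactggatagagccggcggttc
Atf3: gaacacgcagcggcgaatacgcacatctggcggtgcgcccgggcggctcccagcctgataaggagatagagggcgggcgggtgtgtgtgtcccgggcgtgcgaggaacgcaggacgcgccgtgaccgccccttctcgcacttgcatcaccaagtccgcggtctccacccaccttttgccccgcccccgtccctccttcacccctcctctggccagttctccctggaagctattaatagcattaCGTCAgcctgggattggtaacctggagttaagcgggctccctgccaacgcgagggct
Fos held 2 CRE half-sites and Atf3 held 1, as did the windows of Fosb and Junb. Windows were matched for 7 of the 10 genes, and Egr1, Egr3 and Ier2 are not among them. The full CRE TGACGTCA, which contains the half-site on both strands, was in none of the 7 windows and in 1.79% of all. The AP-1 site TGAGTCA or its reverse complement TGACTCA was in none of the 7 and in 5.20% of all. The NBRE AAAGGTCA, to which NR4A receptors bind as monomers, was in none of the 7 and in 1.51% of all, and the CArG box bound by serum response factor was in none and in 1.63%. An EGR site, GCGTGGGCG or GCGGGGGCG on either strand, was in the Nr4a1 and Fosb windows, 1 each, and in 3.47% of all. The letters TATAAA on either strand were in the Nr4a2, Fos and Junb windows, 1 each, and in 13.6% of all. A match is a run of letters and was not tested for binding. Sites outside these windows were not searched, so a motif missing here can lie elsewhere near the gene.

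Nr4a3, the third receptor of the family, was the member with the clearest difference between groups. In uninjured libraries 1 to 4 it was at 14.6, 25.2, 11.6 and 10.6 CPM, in PBS libraries at 1.48, 0.870, 1.26 and 0.840 CPM, and in gel libraries at 2.51, 1.32, 2.69 and 3.75 CPM. Every uninjured library lay above every PBS and gel library, and gel library 2 lay within the range of the PBS libraries. In PBS muscle it fell 13.8-fold against uninjured muscle, with a 95% interval of 8.12 to 23.4. The log2 fold change was -3.79 ± 0.36 (standard error, SE; n = 4 libraries a group), with an adjusted p of 4.90e-05 in edgeR's quasi-likelihood test, the sixth-smallest p of the genes tested. The Benjamini-Hochberg adjustment ran over all 13499 genes, and a gene is called below 0.05. In gel muscle Nr4a3 was 6.00-fold lower than in uninjured muscle (log2 fold change -2.58 ± 0.33, edgeR adjusted p = 0.000169). Both calls held under each of the 21 alternative settings, with adjusted p up to 0.00115 and 0.00945.

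Between gel and PBS muscle Nr4a3 rose 2.30-fold, with a 95% interval of 1.36 to 3.90 (log2 fold change 1.20 ± 0.36, edgeR adjusted p = 0.0211). It was higher in the gel leg than in the PBS leg of 4 of 4 animals, by 0.72, 0.55, 1.03 and 2.02 on the log2 scale. When the animal entered the fit as a block, Nr4a3 missed the threshold (adjusted p = 0.0591), as it did without PBS library 2 (0.0646) or 4 (0.0618) or gel library 4 (0.0897), with limma voom (0.146) and with the 2 groups alone (0.0522). The counts behind the PBS values were 14 to 30 reads a library, so sampling noise is part of their spread. The order of the levels was uninjured, gel, PBS, and gel and PBS overlapped.

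Nr4a1 (Nur77), which is induced in muscle by exercise and beta-adrenergic signals, was the most abundant of the 10 genes. Per kilobase of its longest coding transcript it was at 125 CPM in uninjured muscle, against 2.71 for Nr4a3 and 0.338 for Nr4a2. On the same scale the other 7 genes ranged from 0.193 for Egr3 to 32.5 for Junb. In uninjured libraries 1 to 4 Nr4a1 was at 178, 394, 368 and 341 CPM, in PBS libraries at 226, 290, 282 and 266 CPM, and in gel libraries at 196, 206, 320 and 216 CPM. Uninjured library 1 was the lowest of the 12 and the other 3 uninjured libraries were the highest, so that the groups overlapped throughout. The means of 320 ± 97.7 (standard deviation, SD), 266 ± 28.5 and 235 ± 57.7 CPM gave no call in any comparison. The log2 fold change was -0.27 ± 0.22 for PBS against uninjured (95% interval -0.73 to 0.20, edgeR adjusted p = 0.513), -0.18 ± 0.22 for gel against PBS (-0.65 to 0.29, 0.566) and -0.45 ± 0.22 for gel against uninjured (-0.92 to 0.019, 0.146). The last was called, as a fall, without uninjured library 1 (adjusted p = 0.0181) or gel library 3 (0.0258).

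The level of Nr4a3 relative to Nr4a1 was also compared within the same libraries. The log2 level of Nr4a3 minus that of Nr4a1 was -3.60, -3.96, -4.97 and -4.99 in the uninjured libraries, -7.15, -8.21, -7.69 and -8.13 in the PBS libraries and -6.23, -7.17, -6.84 and -5.81 in the gel libraries. This difference, which was chosen after its values were seen, averaged -4.38 ± 0.71 (SD), -7.80 ± 0.49 and -6.51 ± 0.61. An exact two-sided permutation test gave p = 0.0286 for PBS against uninjured and for gel against uninjured, the smallest value that 4 libraries against 4 can give, and p = 0.0571 for gel against PBS. Adjusted over these 3 comparisons the exact p-values were 0.0429, 0.0429 and 0.0571. The adjustment does not cover the choice of this difference, which follows the Nr4a3 values already given. These p-values are therefore no separate result. That test does not use the pairing of gel and PBS legs by animal. Within the 4 animals the gel leg stood higher by 0.92, 1.05, 0.84 and 2.32 on this scale, in 4 of 4, and an exact two-sided sign-flip test over the animals, also added after the values were seen, gave p = 0.125, the smallest value that 4 pairs allow.

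Nr4a2 (Nurr1) was among the least abundant of the 10 genes, with 6 to 133 counts a library. It was at 1.36, 1.98, 0.406 and 1.08 CPM in uninjured libraries 1 to 4, at 1.04, 1.25, 0.687 and 0.720 CPM in the PBS libraries and at 2.05, 1.61, 1.77 and 4.84 CPM in the gel libraries. Every gel library lay above every PBS library, and gel library 4 was well above the other 3. Nr4a2 rose 2.78-fold in gel against PBS muscle, with a 95% interval of 1.38 to 5.60 (log2 fold change 1.48 ± 0.47, edgeR adjusted p = 0.0292). The gel leg was higher in 4 of 4 animals, by 0.91, 0.34, 1.24 and 2.58 on the log2 scale, but a fit with a block for each animal ended the call (adjusted p = 0.0560). So did leaving out gel library 4, where the log2 fold change was 0.94 (adjusted p = 0.177), or PBS library 1 (0.0531), 3 (0.0798) or 4 (0.0714). Nr4a2 was at -0.39 ± 0.49 in PBS against uninjured muscle (adjusted p = 0.702) and at 1.09 ± 0.47 in gel against uninjured muscle (adjusted p = 0.0978, and 0.0499 without gel library 3). The order of the levels was gel, uninjured, PBS, and neither gel and uninjured nor uninjured and PBS differed beyond their spread.

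**Figure D1:**
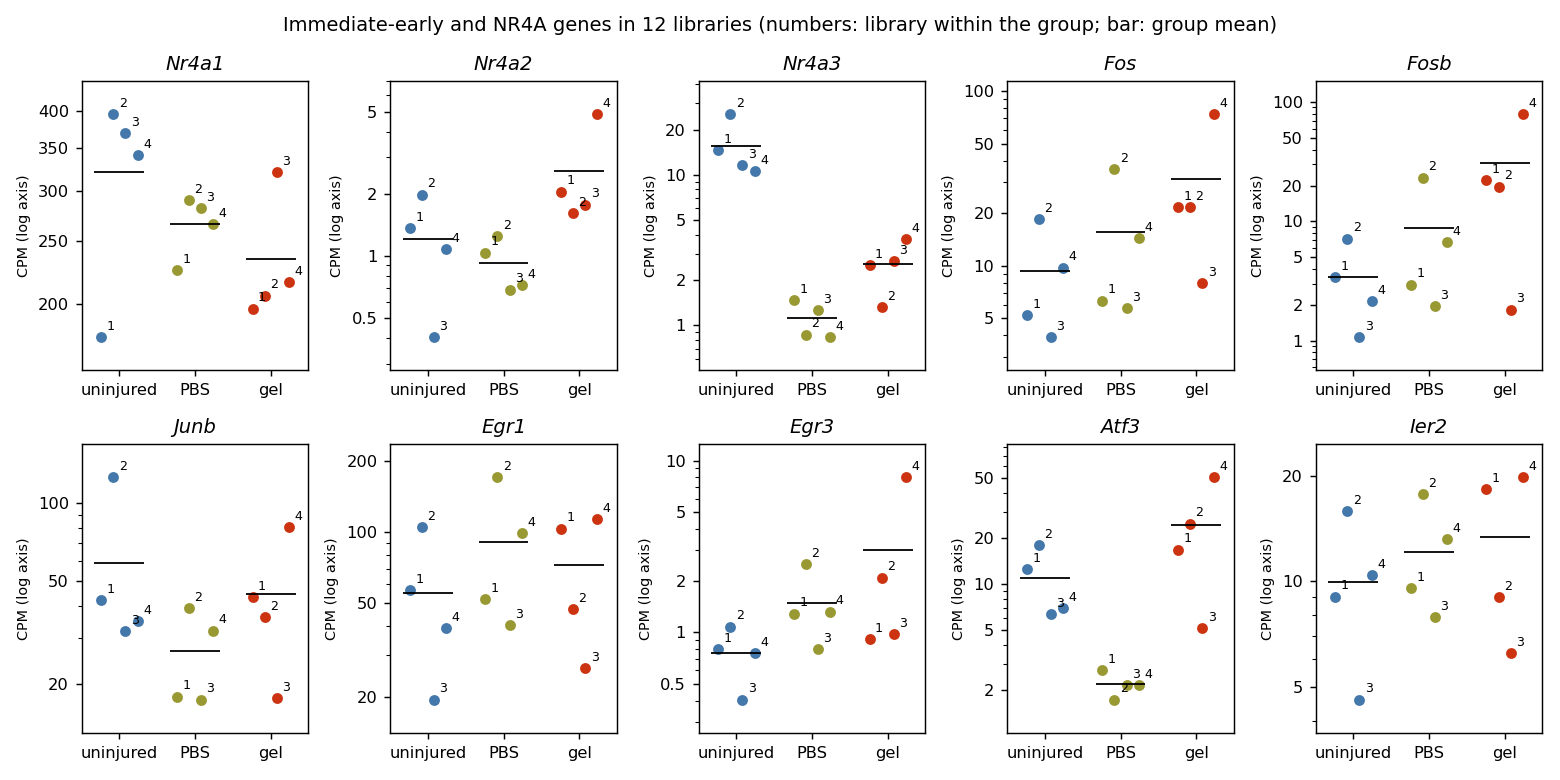
Level of each of the 10 genes in CPM, on a log axis that differs between panels, in 4 uninjured, 4 PBS and 4 gel libraries. Each point is 1 library, numbered within its group, and the bar is the group mean. Nr4a3 separates the uninjured libraries, at 10.6 to 25.2 CPM, from all others, and Atf3 is lowest in the PBS libraries, at 1.74 to 2.71 CPM.

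Atf3 had the largest rise among the 10 genes in gel against PBS muscle. In uninjured libraries 1 to 4 it was at 12.5, 18.1, 6.35 and 6.96 CPM, in PBS libraries at 2.71, 1.74, 2.18 and 2.16 CPM, and in gel libraries at 16.9, 25.1, 5.13 and 50.7 CPM. The PBS libraries lay close together and below all 8 other libraries, while the gel libraries spanned the uninjured range on both sides. Atf3 rose 11.1-fold in gel against PBS muscle, with a 95% interval of 4.15 to 29.9 (log2 fold change 3.48 ± 0.64, edgeR adjusted p = 0.00405). The gel leg was higher in 4 of 4 animals, by 2.59, 3.77, 1.20 and 4.48 on the log2 scale. This call held in all 21 alternative settings, with adjusted p up to 0.0492.

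The difference of Atf3 between PBS and uninjured muscle depended on the fit, although the groups did not overlap. Its log2 fold change was -2.32 ± 0.63 with an edgeR adjusted p of 0.0587, so that it was not called. It passed in 5 of the 21 alternative settings and missed in the other 16, with adjusted p up to 0.285. The adjusted p was 0.00321 with DESeq2, 0.000393 with the 2 groups alone and 0.000142 with the replicate number as a block. That number is not taken to pair these groups. The adjusted p was 0.0102 without gel library 3 and 0.0190 without gel library 4. Gel libraries enter this comparison only through the shared estimate of spread, and Atf3 was spread widely among them. Gel against uninjured muscle gave 1.16 ± 0.57 (adjusted p = 0.161), and 1.48 without gel library 3 (adjusted p = 0.0186). From high to low the levels were gel, uninjured, PBS, and gel and uninjured overlapped.

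The AP-1 subunit genes Fos and Fosb varied most between libraries of the same group. Fos was at 5.23, 18.5, 3.92 and 9.75 CPM in uninjured libraries 1 to 4, at 6.32, 35.6, 5.72 and 14.4 CPM in the PBS libraries and at 21.7, 21.6, 7.94 and 73.4 CPM in the gel libraries. Fosb was at 3.41, 7.20, 1.08 and 2.15 CPM, at 2.96, 23.3, 1.95 and 6.72 CPM, and at 22.3, 19.6, 1.83 and 78.8 CPM in the same order. Both genes were high in uninjured library 2, PBS library 2 and gel library 4 and low in the third library of each group, so that all groups overlapped.

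The order of the group means was uninjured, PBS, gel, from lowest to highest, for both. Fos gave log2 fold changes of 0.73 ± 0.81 for PBS against uninjured (edgeR adjusted p = 0.658), 1.01 ± 0.79 for gel against PBS (0.363) and 1.74 ± 0.81 for gel against uninjured (0.144). Without PBS library 2 the first of these was -0.091. Fosb gave 1.32 ± 1.09 (0.528), 1.82 ± 1.03 (0.209) and 3.14 ± 1.11 (0.0633). The 95% interval of the last ran from 0.67 to 5.61, and it passed with DESeq2 (adjusted p = 0.0118) and when either gel library 3 (0.0229) or PBS library 2 (0.0463) was left out. With the replicate number as a block, Fos and Fosb were called higher in PBS against uninjured muscle (edgeR adjusted p = 0.00902 and 0.0278). That number is not taken to pair these groups. In the main fit no neighbouring groups differed beyond their spread for either gene.

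Junb encodes the AP-1 partner that is often induced together with Fos. It was at 42.2, 126, 32.0 and 35.0 CPM in uninjured libraries 1 to 4, at 17.9, 39.4, 17.4 and 32.2 CPM in the PBS libraries and at 43.4, 36.3, 17.6 and 80.9 CPM in the gel libraries. Uninjured library 2 stood far above the rest of its group, and all groups overlapped. Its log2 fold changes were -1.14 ± 0.57 for PBS against uninjured (edgeR adjusted p = 0.273), 0.74 ± 0.56 for gel against PBS (0.350) and -0.40 ± 0.56 for gel against uninjured (0.642), the last of which was 0.28 without uninjured library 2. Means ran from uninjured through gel to PBS, with no neighbours apart beyond their spread. An exon of Junb overlaps Prdx2 on the other strand. Prdx2, an antioxidant enzyme gene, was at 131 ± 10.8 (SD), 130 ± 8.55 and 173 ± 18.0 CPM in uninjured, PBS and gel muscle, and no source used here gives the strand setting of the counts. The overlapping part can therefore belong to either gene.

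Egr1, induced by growth factors and mechanical load, was at 56.9, 105, 19.5 and 39.3 CPM in uninjured libraries 1 to 4, at 52.0, 171, 40.2 and 98.7 CPM in the PBS libraries and at 103, 47.0, 26.6 and 113 CPM in the gel libraries. The highest library of each group lay above the mean of every other group, and all groups overlapped. Log2 fold changes were 0.71 ± 0.64 for PBS against uninjured (95% interval -0.71 to 2.14, edgeR adjusted p = 0.568), -0.32 ± 0.64 for gel against PBS (-1.73 to 1.10, 0.740) and 0.40 ± 0.64 for gel against uninjured (-1.02 to 1.82, 0.690). Without PBS library 2 the second was 0.18. From high to low the means stood as PBS, gel, uninjured, and no neighbours differed beyond their spread.

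Egr3, the zinc-finger factor needed for muscle spindle development, was the other member called in gel against uninjured muscle. It was at 0.796, 1.08, 0.406 and 0.760 CPM in uninjured libraries 1 to 4, at 1.28, 2.50, 0.801 and 1.32 CPM in the PBS libraries and at 0.911, 2.08, 0.977 and 8.01 CPM in the gel libraries. Its level in gel libraries 1 and 3 was within the uninjured range, and the groups overlapped. The log2 fold change for gel against uninjured was 1.99 ± 0.66 (3.96-fold, edgeR adjusted p = 0.0387). It was 0.77 without gel library 4 (adjusted p = 0.320), and the call was lost in 12 of the 21 alternative settings. PBS against uninjured gave 0.95 ± 0.67 (adjusted p = 0.441) and gel against PBS 1.04 ± 0.62 (0.218), which was -0.17 without gel library 4. Gel had the highest mean, then PBS, then uninjured, and neither gel and PBS nor PBS and uninjured differed beyond their spread.

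Ier2 gave no call and differed little between the groups. It was at 9.04, 15.8, 4.60 and 10.4 CPM in uninjured libraries 1 to 4, at 9.58, 17.7, 7.90 and 13.2 CPM in the PBS libraries and at 18.3, 8.99, 6.23 and 19.8 CPM in the gel libraries. The ranges of the 3 groups overlapped over most of their length, and the order of the means was gel, PBS, uninjured. Its log2 fold changes were 0.28 ± 0.43, 0.15 ± 0.42 and 0.42 ± 0.43 for PBS against uninjured, gel against PBS and gel against uninjured (edgeR adjusted p = 0.766, 0.824 and 0.503), with 95% intervals of -0.66 to 1.22, -0.78 to 1.07 and -0.51 to 1.36. The sign of gel against PBS turned without PBS library 3 (-0.023) or gel library 1 (-0.043) or 4 (-0.14).

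Counted over the 10 genes, PBS against uninjured muscle gave 0 rises and 1 fall, Nr4a3, beside 2.79% of all tested genes called higher and 3.39% called lower. Nr4a3 and Atf3, 2 of the 10, were lower in PBS with no overlap between the groups, beside 20.6% of all genes. In gel against PBS muscle 3 rose, Atf3, Nr4a2 and Nr4a3, and 0 fell, beside 16.6% higher and 13.2% lower among all genes. Nr4a2 and Atf3, 2 of the 10, were higher in gel without overlap, beside 20.1% of all. In gel against uninjured muscle 1 rose, Egr3, and 1 fell, Nr4a3, beside 14.5% and 11.1% of all, and the groups did not overlap for 1, Nr4a3, beside 23.0%. With 10 genes, each of these counts lies within 2 genes of the background share, so the counts are no result about the 10 genes as a set. The median log2 fold change of the 10 genes was 0.0048, 1.03 and 0.76 in the 3 comparisons, against 0.00084, 0.044 and 0.028 over all genes. PBS libraries serve in the first 2 comparisons and each other group in 2 as well, so the comparisons are not independent.

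Leaving out gel library 3, which stood apart, changed the count for gel against uninjured muscle from 2 to 6 of the 10 genes. The added calls were rises of Atf3, Fosb (log2 fold change 3.52) and Nr4a2 and a fall of Nr4a1 (-0.65). With all 12 libraries 14.5% of all genes were called higher and 11.1% lower in that comparison. The count over all genes also changed with the library left out, so these shares are not those of the fit that gave 6 calls. The 6 are no result about the 10 genes as a set. Gel against PBS muscle still gave 3 calls without gel library 3, with log2 fold changes of 3.80 for Atf3, 1.61 for Nr4a2 and 1.17 for Nr4a3 (edgeR adjusted p = 0.000119, 0.0115 and 0.0272). In the fit with a block for each animal, 1 of the 3, Atf3, was called. No share of all genes is given for either of these fits, so their counts are no result about the 10 genes as a set.

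**Figure D2:**
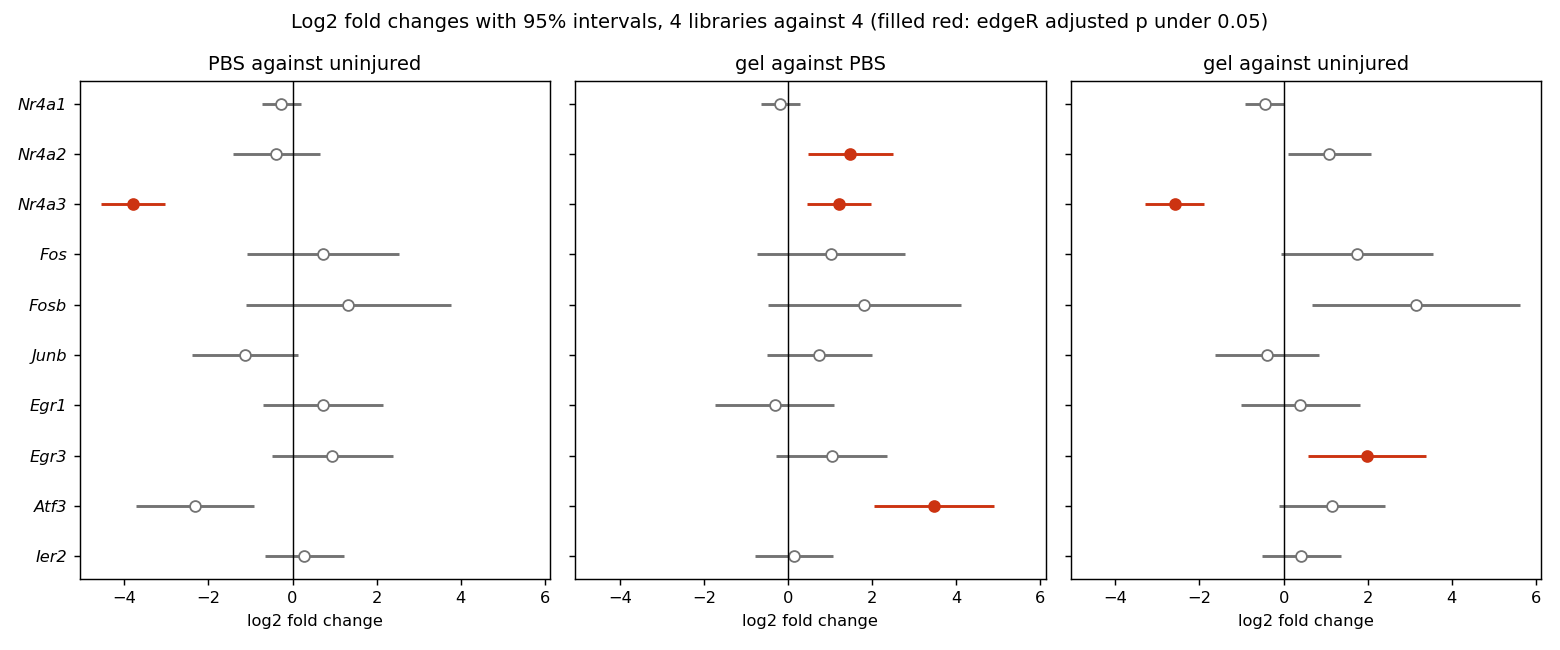
Log2 fold changes of the 10 genes (x axis) for PBS against uninjured, gel against PBS and gel against uninjured muscle, each with its 95% interval from edgeR, 4 libraries against 4. Filled red points have an adjusted p below 0.05. The interval of Nr4a3 lies far below 0 in both comparisons with uninjured muscle, while those of Fos, Fosb, Junb, Egr1 and Egr3 are several log2 units wide.

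The spread within groups was itself a feature of these genes. The within-group SD of log2 CPM was 1.69 for Fosb, 1.18 for Fos, 0.98 for Egr1, 0.93 for Egr3, 0.90 for Atf3 and 0.82 for Junb, against a median of 0.29 over all tested genes. Fosb stood at the 99.8th percentile of all genes, Fos at the 98.2nd and Egr1 at the 95.9th. The SD was 0.68 for Nr4a2, 0.52 for Nr4a3 and 0.37 for Nr4a1. By group, that of Atf3 was 1.37 in gel, 0.71 in uninjured and 0.25 in PBS libraries. For Egr3 it was 1.39, 0.50 and 0.62 in the same order, so most of the spread of both genes lay in the gel group. Low counts widen this spread, and against genes within 0.5 log2 units of the same level Egr1 was at the 99.8th percentile, Junb at the 99.1st and Ier2 at the 97.5th. Of the receptors, measured in the same way, Nr4a1 was at the 91.8th percentile, Nr4a3 at the 75.9th and Nr4a2 at the 63.8th.

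**Figure D3:**
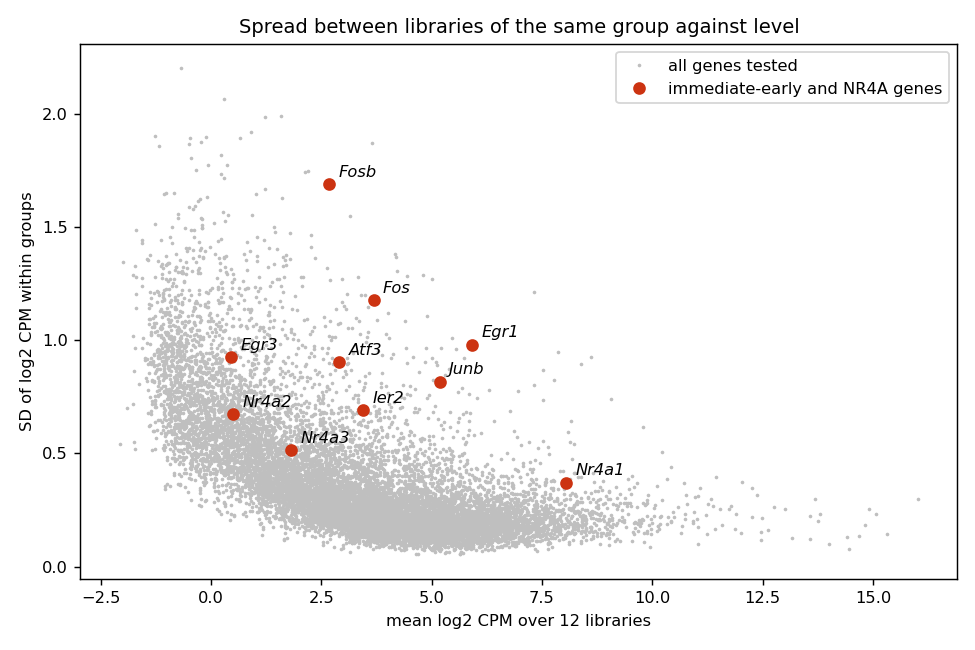
SD of log2 CPM between libraries of the same group (y axis) against mean log2 CPM over the 12 libraries (x axis), for all 13499 tested genes in grey and the 10 genes in red. Fosb, Fos, Egr1, Junb and Atf3 lie along the upper edge for their level, and Nr4a3 and Nr4a2 lie within the cloud.

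The spread was shared between genes, library by library. Uninjured library 2 was the highest of its group for 10 of the 10 genes, PBS library 2 for 8 and gel library 4 for 9. Uninjured library 3 was the lowest for 8, PBS library 3 for 7 and gel library 3 for 6. Among 47 other tested immediate-early genes uninjured library 2 was the highest for 29 (61.7%), PBS library 2 for 18 (38.3%) and gel library 4 for 23 (48.9%), and among all genes for 24.8%, 22.7% and 22.0%. Among the 47, uninjured library 3 was the lowest for 27.7%, PBS library 3 for 29.8% and gel library 3 for 48.9%, beside 24.1%, 28.6% and 34.0% of all genes, and in the uninjured group library 1 was the lowest most often (38.3%).

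Fos, Fosb, Junb, Egr1 and Ier2 moved together most closely. Over the 12 libraries, with each group's mean removed, Pearson's r was 0.87 to 0.97 for the 10 pairs among them. Nr4a1 did not move with the rest, at -0.45 to 0.088 with the 9 others, and Nr4a3 was at 0.088 to 0.63. These are descriptions over 12 libraries that share depth and preparation. Gel library 3 was the highest gel library for Nr4a1 and the lowest for Fos, Fosb, Junb, Egr1, Atf3 and Ier2. Between the legs of an animal, gel was higher than PBS in 3 of 4 animals for Fos and Junb, in 2 for Fosb, Egr1, Egr3 and Ier2 and in 1 for Nr4a1.

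**Figure D4:**
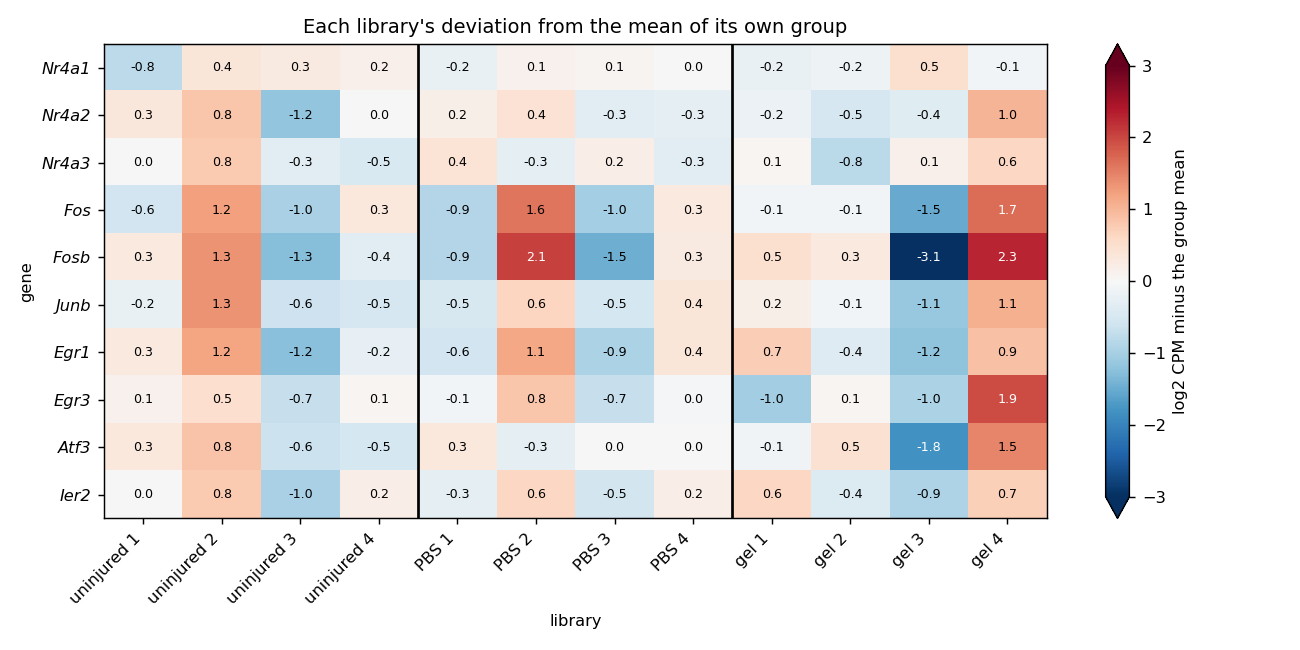
Log2 CPM of each gene (rows) in each library (columns) minus the mean of its own group, in red where above and blue where below, with black lines between the groups. Uninjured library 2, PBS library 2 and gel library 4 are red for most genes, the third library of each group is blue for most, and Nr4a1 is above its group mean in gel library 3.

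Other immediate-early genes were taken from a list of 50, of which 47 were tested. In PBS against uninjured muscle 14 fell and 0 rose, beside 3.39% and 2.79% of all genes, with a median log2 fold change of -0.60 against 0.00084 over all genes. The calls with the smallest p were Cebpd, a C/EBP transcription factor gene (62.2 ± 18.6 (SD) to 8.32 ± 1.99 CPM, log2 fold change -2.90), Hbegf, an EGF-family growth factor gene (27.9 ± 6.47 to 10.9 ± 3.05 CPM), Nfil3, a bZIP repressor gene (24.4 ± 8.03 to 7.37 ± 1.47 CPM), and Ccn2, a matricellular protein gene (11.3 ± 0.841 to 3.60 ± 1.06 CPM). Of the 10 genes described here, Nr4a3 was the one that fell alongside these. The number that fell was 10 to 16 when any 1 library was left out.

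In gel against PBS muscle 10 of the 47 rose and 0 fell, beside 16.6% and 13.2% of all genes, with a median of 0.32. They were led by Nfkbiz, a regulator of NF-kappaB (2.56 ± 0.818 to 8.27 ± 4.42 CPM), Npas4, a calcium-induced factor (0.423 ± 0.253 to 2.09 ± 1.20 CPM), Egr2, another zinc-finger factor of the EGR family (1.12 ± 0.721 to 5.05 ± 2.74 CPM) and Arc, an activity-regulated gene of neurons (2.57 ± 0.701 to 5.47 ± 2.25 CPM). The count of rises was 17 without gel library 3, 4 to 6 without any 1 of the other gel or PBS libraries and 7 to 10 without 1 of the uninjured libraries. In gel against uninjured muscle 4 rose and 9 fell, beside 14.5% and 11.1% of all genes, with Cebpd, Hbegf, Nfil3 and Cebpb at the smallest p, all lower. The rises and falls were 10 and 10 without gel library 3, 2 and 8 without uninjured library 1 and 7 and 7 without uninjured library 2.

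Genes that encode partners and upstream factors were called in both directions. Of 17 tested AP-1 and ATF partner genes, 1 rose and 2 fell in PBS against uninjured muscle, 1 rose and 3 fell in gel against PBS, and 1 rose and 5 fell in gel against uninjured. The shares of all genes called higher and lower were 2.79% and 3.39%, 16.6% and 13.2%, and 14.5% and 11.1% in these comparisons. Jund, an AP-1 subunit gene, went from 29.0 ± 3.21 (SD) CPM in uninjured muscle to 41.5 ± 1.26 CPM in PBS and 59.7 ± 15.4 CPM in gel muscle, and rose in both comparisons with gel (log2 fold change 1.04 ± 0.16 against uninjured, edgeR adjusted p = 0.000461). Of 28 genes of the SRF, CREB and MEF2 pathways that drive early transcription, 2 rose in PBS against uninjured muscle, 1 rose and 8 fell in gel against PBS, and 4 rose and 4 fell in gel against uninjured. Mrtfa, the coactivator of serum response factor, rose from 36.8 ± 7.95 to 90.8 ± 11.0 CPM in the first, and Srf itself fell from 154 ± 8.62 to 96.1 ± 26.5 CPM in the second. Of 5 feedback and partner genes, the EGR corepressor gene Nab2 rose in gel against PBS muscle (7.16 ± 1.06 to 13.8 ± 3.68 CPM). The retinoid X receptor genes Rxra, Rxrb and Rxrg, whose products pair with NR4A1 and NR4A2, fell there and in gel against uninjured muscle.

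Of 18 metabolic genes that have been linked to NR4A receptors in muscle, 1 rose and 1 fell in PBS against uninjured muscle. Their median was -0.087, and over all genes 2.79% rose and 3.39% fell there. The uncoupling protein gene Ucp3 fell from 486 ± 125 (SD) to 157 ± 24.4 CPM, and the coactivator gene Ppargc1b rose from 17.0 ± 1.66 to 42.0 ± 5.63 CPM. In gel against PBS muscle 1 rose and 2 fell, beside 16.6% and 13.2% of all genes. In gel against uninjured muscle 2 rose and 6 fell, beside 14.5% and 11.1% of all genes, among the latter Lpin1, a phosphatidate phosphatase and coactivator gene (328 ± 28.5 to 138 ± 45.5 CPM). Of the fast-fibre markers, 5 of 12 also fell in that comparison, and the part of tissue makeup in these falls was not tested.

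Genes of the glucocorticoid response, a list that also holds the receptor gene Nr3c1 and Fkbp4, stood lower beside Nr4a3. Of 14, 10 fell and 0 rose in PBS against uninjured muscle, with a median log2 fold change of -1.76. In gel against uninjured muscle 12 fell and 0 rose. Over all genes 3.39% fell and 2.79% rose in the first comparison, and 11.1% fell and 14.5% rose in the second. Their summed level was 1599 to 2628 CPM in uninjured, 748 to 881 CPM in PBS and 744 to 1042 CPM in gel libraries. Fkbp5, a chaperone gene of the glucocorticoid receptor, went from 84.8 ± 19.3 (SD) to 11.4 ± 4.03 CPM in PBS muscle, and Zbtb16, a zinc-finger repressor gene, from 154 ± 18.8 to 35.2 ± 3.04 CPM. Cebpd and Per1 are on this list and on that of the early genes. In gel against PBS muscle, where Nr4a3 rose, 3 of the 14 rose and 3 fell, beside 16.6% and 13.2% of all genes. The number of the 14 that fell was 0 without gel library 2 or 4 and with the 2 groups alone. It was 1 without gel library 1 or PBS library 3 or 4, and 5 without gel library 3. Clock genes also differed, with 3 of 16 higher and 2 lower in PBS against uninjured muscle, beside 2.79% and 3.39% of all genes. Among the latter, Per1 went from 176 ± 47.8 to 67.2 ± 11.7 CPM. Of 10 heat-shock genes, which tissue handling can also induce, 0 rose in any comparison. The falls were 1 in PBS against uninjured muscle, 1 in gel against PBS and 3 in gel against uninjured. Beside these, 3.39%, 13.2% and 11.1% of all genes fell. Tendon markers were also lower beside Nr4a3. Their 6 genes summed to 184 to 243 CPM in uninjured, 77.3 to 136 CPM in PBS and 104 to 137 CPM in gel libraries. Of 5 tested, Thbs4, Fmod and Tnmd fell in PBS against uninjured muscle, beside 3.39% of all genes. Fmod and Thbs4 fell in gel against uninjured, beside 11.1%. Adipocyte markers summed to 158 to 175 CPM in uninjured and 94.5 to 132 CPM in PBS libraries, with 0 of 3 called. The part of stress hormone, time of day or tissue makeup in the Nr4a3 difference was not tested. In comparisons with uninjured muscle the animals and the treatment cannot be told apart, nor, for PBS, the side of the body.

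Macrophage markers stood higher beside Atf3 in gel muscle, with 12 of 12 called higher in gel against PBS (8 with limma voom). Their median log2 fold change was 4.47, and 16.6% of all genes were called higher. In PBS against uninjured muscle, where Atf3 was lower without overlap, 0 of 12 were called. Gel library 3 had the lowest marker sum, 101 CPM, and the lowest Atf3, 5.13 CPM, of the gel libraries. Both values were above those of every PBS library. In the uninjured libraries Atf3 was at 6.35 to 18.1 CPM at marker sums of 42.1 to 82.6 CPM, about those of PBS muscle. Markers of other leukocytes were higher in the same 3 gel libraries. Neutrophil markers summed to 18.3, 24.1, 1.10 and 22.0 CPM in gel libraries 1 to 4, against 1.03 to 2.07 CPM in PBS libraries, and T and NK cell markers to 12.9, 12.7, 0.855 and 11.7 CPM, against 0.109 to 0.987 CPM. Of these genes 1 had enough counts to be tested, the neutrophil receptor gene Csf3r, which rose in gel against PBS muscle (log2 fold change 3.78), and the defining neutrophil marker Ly6g had no count in any group. Of 8 fibroblast markers 4 rose in gel against PBS muscle, and of 6 satellite cell markers 2 rose, beside 16.6% of all genes. The part of macrophages or of these other cells in the gel level of Atf3 was not tested.

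**Figure D5:**
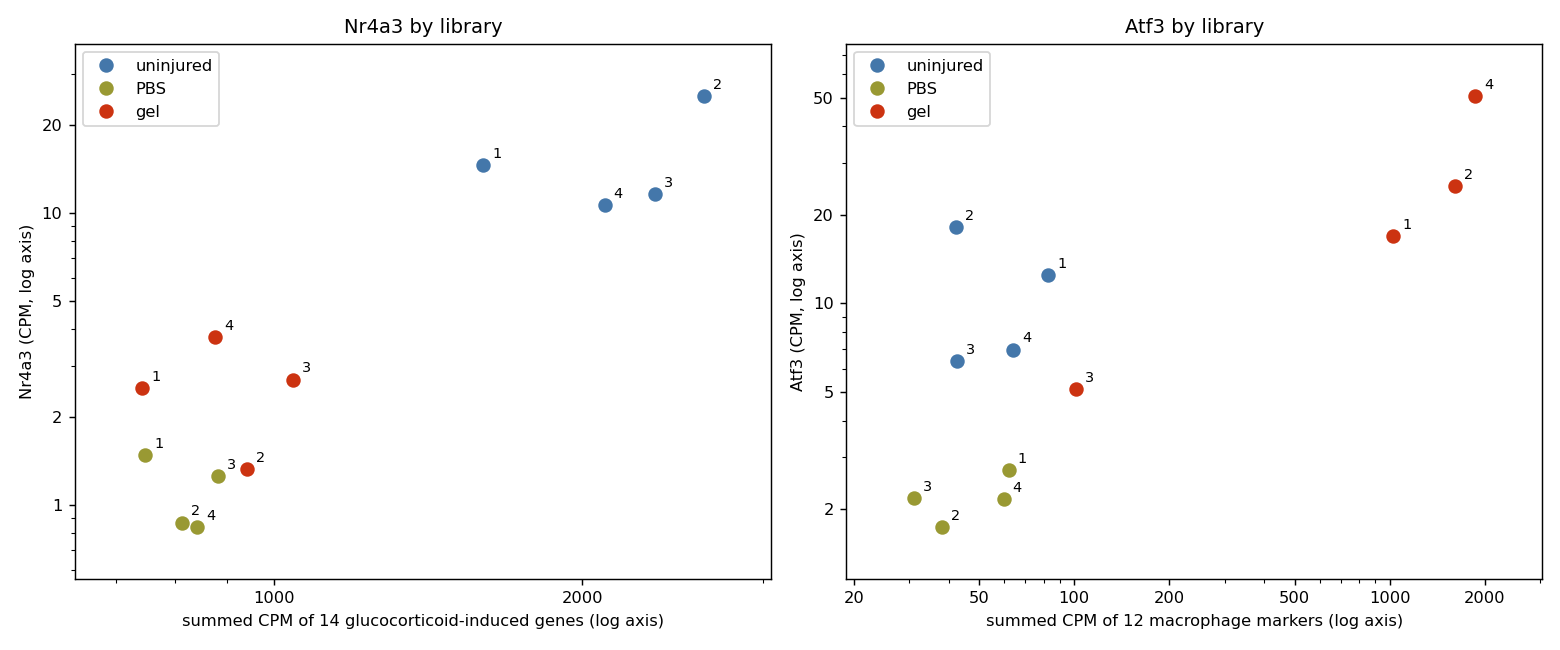
Left, Nr4a3 level against the summed level of 14 glucocorticoid response genes (glucocorticoid-induced on the axis). Right, Atf3 level against the summed level of 12 macrophage markers. Both are in CPM on log axes, with 1 numbered point for each of the 12 libraries. The uninjured libraries are apart from the rest at left, and at right gel library 3 lies between the PBS libraries and the other gel libraries.

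Among 12304 genes with a mean of at least 1 CPM, the pattern over 12 libraries most like that of Nr4a3 was that of Cebpd (Pearson's r of log2 CPM 0.963), followed by Pfdn1 (0.955), Dok7 (0.947), Ccdc157 (0.945) and the pseudogene Hmga2-ps1 (0.936), whose reads may belong to another gene. For Nr4a1 they were Cldn12 (0.915), Zfp869 (0.895), Gm10336 (0.850), Foxp2 (0.823) and Sp4 (0.819). For Fos they included Ticam1 (0.913), Zfp36 (0.892), Rrm2 (0.877) and Foxm1 (0.834), and for Egr1 they were Rela (0.853), Klhl4 (0.834), Zfp865 (0.801), Cx3cl1 (0.801) and Numa1 (0.792). Zfp36, which encodes a protein that destabilises early transcripts, was with Cebpd one of the genes named here that are on the list of other early genes. These values rank genes by likeness over libraries of 3 groups and carry no test.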

How the data were processed

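RNA-seq of 12 libraries of mouse tibialis anterior was deposited as read counts per gene symbol, 1 file a library, and the authors had not normalised these counts. The submitters' processing notes name STAR, edgeR and the build mm39, with no versions. The sources used here do not name the counting program, its strand setting or the annotation. Of the values from 1 to 4, 74.5% to 87.1% in each library were even, so counts may hold both mates of a pair, and halved counts were tried after the data were seen.

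Groups came from the labels. The tool was edgeR 4.0.16 (R 4.3.3): filterByExpr, trimmed-mean scaling, and a robust quasi-likelihood fit to all 12 libraries with 1 coefficient a group, leaving 9 residual degrees of freedom. The fit was tested on simulated data in which all genes and groups had the same replicate variation. That does not cover the unequal spread of these genes. SE is the log2 fold change over the square root of F, with a prior count of 2 for log2 CPM. CPM are counts divided by the scaled library total. Libraries count as replicates, 4 a group, so p-values measure the spread between libraries of a group. Gel and PBS libraries are taken as legs of the same 4 animals, and this fit does not use that pairing. Replicates differed beyond sampling noise (chi-square of at least 6.50 a gene). Alternatives were other scalings and filters, DESeq2 1.42.0, limma 3.58.1 voom, 2 groups alone, a replicate block and each library left out. Gel and PBS libraries of the same number pair by animal, from the deposited names. Their deviations correlated at 0.14, -0.06, 0.31 and 0.08.

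The 10 genes and the gene lists were chosen with earlier results of these data known. All 10 are named throughout, and other lists give at most the 4 genes with the smallest p for each comparison. Other named genes (Per1, Rxra, Rxrb, Rxrg and Prdx2 among them) were chosen after their values were seen. Likeness took the 5 genes with the highest Pearson's r, of which 1 for Fos is not reported here. Windows and their sequences are RefSeq's on GRCm38.p6, and transcript lengths and overlaps are from GENCODE on GRCm38, matched by symbol.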

Additional observations from a re-analysis of the deposited data

Results flagged for a closer look

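In 4 of the 30 gene and group combinations, 1 library lay far from the other 3, by the gap to its nearest neighbour as a share of the group's range. Chance flags about 1 in 20 such groups when values are independent and normally distributed. Several of these genes moved together within libraries, so that rate is only a rough guide here. For Nr4a1 it was gel library 3, at 320 CPM against 216 CPM for the next (share 0.841). For Nr4a2 it was gel library 4, at 4.84 against 2.05 CPM (0.863), and for Egr3 the same library, at 8.01 against 2.08 CPM (0.835). For Junb it was uninjured library 2, at 126 against 42.2 CPM (0.892). Gel library 4 and uninjured library 2 were also the highest of their groups for most of the other genes.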

How the results depend on the processing

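Of 630 log2 fold changes of the 10 genes under 21 alternatives, 586 kept their direction and side of the threshold, 23 lost a call, 14 gained one and 7 turned sign. Each turn came from leaving out 1 library. The values then ran from -0.091 to 1.30 for Fos in PBS against uninjured, from -0.65 to 0.18 for Egr1, -0.17 to 1.40 for Egr3 and -0.14 to 0.38 for Ier2 in gel against PBS, and from -0.89 to 0.28 for Junb in gel against uninjured. The cause was not tested.

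PBS against uninjured gave 833 genes, 1415 with DESeq2, 2339 with the 2 groups alone and 378 to 1693 with a library left out, and of the 10 genes 1, 2, 2 and 1 to 2. Gel against PBS gave 4022, 2559 with the 2 groups alone and 2456 to 5962 with a library left out, and of the 10 genes 3, and 1 to 3 with a library left out. Gel against uninjured gave 3449 and 2275 to 5341, and of the 10 genes 2, 1 without a filter, with voom and with the 2 groups alone, and 1 to 6 with a library left out.

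With the replicate number as a block, gel against PBS called 1 of the 10 genes, PBS against uninjured 4 (2539 genes in all) and gel against uninjured 1. No count over all genes is given for the block fits with gel. Uninjured libraries are taken as those of other animals, so for them the number is not taken to pair anything. Halved counts kept each call of the 10 genes. Of the other early genes, 14 fell in PBS against uninjured, 22 with the 2 groups alone and 23 with the block. In gel against PBS 10 rose, and 6 without a filter. In gel against uninjured 4 rose and 9 fell, and 9 and 11 with DESeq2. Of 12 macrophage markers 12 rose in either comparison with gel, and 8 and 6 with voom.

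Nr4a2 and Egr3 had as few as 6 counts in a library, where only large differences can be seen. With 4 libraries a group, wide intervals for Fos, Fosb and Egr1 leave differences of several fold undetected.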
